A study of Mus musculus with 12 samples.

Results

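The response of the draining lymph node to hapten challenge that wild-type and miR-451a knockout mice had in common was measured in all 12 RNA libraries of the series. Members are the genes that changed on challenge in the same direction in both genotypes, each genotype passing an adjusted p under 0.05 by itself. There were 1156 such genes among the 20034 tested, which is 5.77%. Of these, 887 were higher on challenge (4.43% of the genes tested) and 269 were lower (1.34%).

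Mandibular lymph nodes came from mice that were wild type or lacked miR-451a, a microRNA (a short RNA that represses messenger RNAs), with 3 libraries in each of 4 groups. All mice were sensitized to 1-fluoro-2,4-dinitrobenzene (DNFB), a skin-sensitizing hapten, with 100 µl at 0.5% on the abdomen on days 0, 1 and 2. Nodes of the groups WT_se and KO_se were taken on day 9 with no challenge. The groups WT_DTH and KO_DTH received 20 µl of DNFB at 1% on the left ear on day 9, which elicits delayed-type hypersensitivity, and their nodes were taken 24 h later, on day 10. Challenge and day of harvest therefore cannot be told apart, and the controls are sensitized animals, not untreated ones. The labels name neither the knockout allele nor the animal behind each library. By the balance of Xist and Ddx3y, each group held libraries of both sexes, so no group came from a single mouse, though it is not known that all 3 of its libraries came from different mice. Xist exceeded Ddx3y in 1 of 3 libraries of each sensitized group and 2 of 3 of each challenged group, so sex leaned with challenge. With sex as a covariate 1199 genes were shared, 1062 of the 1156 among them. The p-values rest on the scatter among libraries, which may be partly technical. The study as a whole asks how miR-451a bears on IL-17A-driven allergy. The miR-451a gene was not analysed here, so the genotype labels have no check on their target.

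Delayed-type hypersensitivity is a T cell reaction in which antigen met a second time in the skin makes primed T cells release cytokines, interferon-gamma among them. Interferons bind their receptors and act through the kinases JAK1, JAK2 and TYK2 on transcription factors of the STAT family. A complex that holds STAT2 and IRF9 binds the interferon-stimulated response element (ISRE) in the promoters of antiviral genes, while STAT dimers bind the gamma-activated site (GAS). In a lymph node, interferon-gamma also draws CXCR3-bearing T cells through the chemokines CXCL9, CXCL10 and CXCL11, and inflamed nodes take up monocytes from the blood.

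The promoters of 6 interferon-induced genes are shown first because they carry the letters GAAANNGAA of the ISRE and belong to the members that rose most. They were the named members of the interferon lists, with a match before the transcription start, whose averaged rise was largest. They were thus chosen for having a match: of 50 named members of those lists that rose, 33 had a single promoter in the table, and 19 of these 33 held a match before the start. Each line gives the 250 bases before the RefSeq transcription start, 5′ to 3′ on the gene's strand, in the build GRCm38.p6 of the RefSeq table. Capitals mark matches to GAAANNGAA on either strand, merged where they overlap.
Oas1g: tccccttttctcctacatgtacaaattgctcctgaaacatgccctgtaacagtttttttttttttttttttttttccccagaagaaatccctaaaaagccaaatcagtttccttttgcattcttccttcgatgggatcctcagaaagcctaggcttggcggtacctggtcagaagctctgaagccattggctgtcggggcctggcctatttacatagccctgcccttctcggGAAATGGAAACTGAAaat
Isg15: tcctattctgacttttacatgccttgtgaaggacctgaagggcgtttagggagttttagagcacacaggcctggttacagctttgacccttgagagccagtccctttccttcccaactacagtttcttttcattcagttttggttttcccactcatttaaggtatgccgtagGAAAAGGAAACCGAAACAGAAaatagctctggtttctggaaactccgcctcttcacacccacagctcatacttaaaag
Cxcl9: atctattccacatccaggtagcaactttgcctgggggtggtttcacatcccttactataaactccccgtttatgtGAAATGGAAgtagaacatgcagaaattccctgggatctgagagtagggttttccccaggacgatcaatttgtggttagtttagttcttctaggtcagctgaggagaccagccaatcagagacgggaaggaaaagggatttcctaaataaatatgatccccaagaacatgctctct
Ifit3: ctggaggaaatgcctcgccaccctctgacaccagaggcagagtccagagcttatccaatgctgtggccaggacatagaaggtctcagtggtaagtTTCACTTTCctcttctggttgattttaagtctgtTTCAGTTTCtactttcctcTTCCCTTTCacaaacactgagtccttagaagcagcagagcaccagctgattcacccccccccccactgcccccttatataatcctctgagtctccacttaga
Oas1a: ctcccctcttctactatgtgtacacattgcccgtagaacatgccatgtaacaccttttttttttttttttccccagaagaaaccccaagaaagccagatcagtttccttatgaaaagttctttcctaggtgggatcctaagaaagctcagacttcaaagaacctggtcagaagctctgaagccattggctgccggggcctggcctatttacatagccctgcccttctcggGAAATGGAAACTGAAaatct
Ifit1: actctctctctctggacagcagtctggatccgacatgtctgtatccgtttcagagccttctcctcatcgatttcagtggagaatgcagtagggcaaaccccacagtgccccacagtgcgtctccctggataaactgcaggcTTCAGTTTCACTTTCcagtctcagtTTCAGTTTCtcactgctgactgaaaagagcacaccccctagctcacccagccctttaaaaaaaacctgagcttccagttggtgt

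Oas1g (chr5:120887614-120887863, minus strand) and Oas1a (chr5:120907526-120907775, minus strand) encode sensors of double-stranded RNA that activate RNase L. Both carried 2 overlapping matches close to the start, the nearer one 12 bases before it in Oas1g and 14 bases in Oas1a. Isg15 (chr4:156200819-156201068, minus strand), a ubiquitin-like modifier, held 3 overlapping matches, the nearest 66 bases before the start. Ifit1 (chr19:34640639-34640888, plus strand), which binds viral RNA, and its partner Ifit3 (chr19:34583279-34583528, plus strand) held 3 matches each. The nearest match lay 84 bases before the start in Ifit1 and 102 bases before it in Ifit3, read on the opposite strand. Cxcl9 (chr5:92328080-92328329, minus strand), a ligand of CXCR3, held 1 match, 175 bases before the start. A match is a description of letters, not a binding site.

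Across members, these letters were unevenly spread. RefSeq promoters of 300 bases (250 before and 50 after the start) could be assigned to 9855 of the genes tested, and GAAANNGAA stood on either strand of 7.59% of them. Among 22862 promoters of the whole table the share was 8.62%. Of the 533 members with a promoter that rose, 103 (19.3%) held it, and of the 66 that rose over 4-fold, 29 (43.9%) did. Of the 156 members with a promoter that fell, 6 (3.85%) did. In the antiviral effector list 13 of 21 promoters held the letters, in the guanylate-binding proteins 4 of 4, in the immunity-related GTPases 5 of 6 and in the T cell identity list 0 of 6. The GAS letters TTCNNNGAA were in 7.02% of tested promoters, 10.7% of those of members that rose and 5.77% of those of members that fell. The letters GGGANTTCC of the NF-kB site were in 2.32%, 2.63% and 2.56%. The cell cycle element TTTGAA was in 13.0%, 10.9% and 12.8%, and CCAAT in 38.6%, 35.6% and 35.9%. ISRE and GAS matches can overlap, and no test was made of these shares.

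Shares of some marker lists differed between groups, while the ranges of library totals overlapped. Library totals were 36.9 to 58.4 M counts. The T cell identity list made up 0.164 to 0.288% of counts and the mature B cell list 0.196 to 0.5%, both present in all libraries. The 12 keratinocyte genes made up 0.000309 to 0.000652%, and 6 of them had enough counts to test. Among the others, Krt1, Krtdap, Lor and Flg were at 0. Markers of the adjacent salivary gland made up 5.92 to 13.2% of counts in WT_se, 1.82 to 2.85% in WT_DTH, 2.38 to 5.91% in KO_se and 3.97 to 8.68% in KO_DTH, so that the challenged range lay below the sensitized one in wild type, while the knockout ranges overlapped with the challenged one higher. Of 18 salivary genes tested, 0 were members by edgeR or limma-voom, 1 by DESeq2, and 1 passed in both genotypes at an unadjusted p under 0.05. Mitochondrially encoded messenger RNAs went from 13.8 to 19.1% of counts to 4.37 to 5.84% in wild type, and ranged over 11.9 to 16% and 5.57 to 15.7% in the knockout. The 13 genes of that list all fell in the average of both genotypes, against 9.65% of the genes tested. Of them, 0 were members by edgeR, DESeq2 or limma-voom, and 0 passed in both genotypes at an unadjusted p under 0.05. Over all genes tested 5.77% were members by edgeR, so 0 in lists of 18 and 13 genes is near that share. Erythroid markers held 0.33 to 1.55% of counts in the sensitized nodes and 0.146 to 0.482% in the challenged ones. Shares of counts in bulk RNA cannot tell fewer cells of a type from less RNA per cell.

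**Figure D1:**
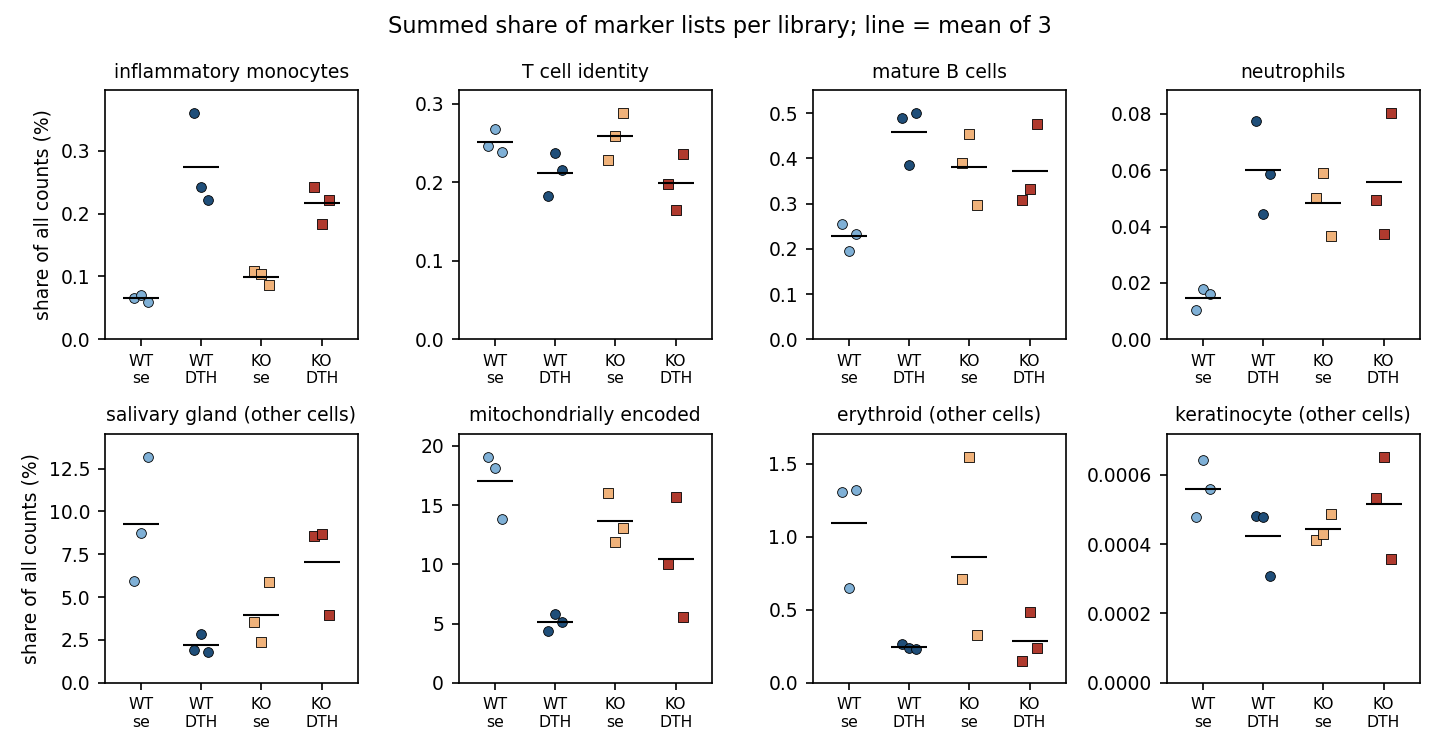
Summed share of all counts (%, y axis) of 8 marker lists in each of the 12 libraries, by group on the x axis (se, sensitized; DTH, challenged); points are libraries and lines the means of 3. Inflammatory monocyte markers are higher in all challenged than in all sensitized libraries, while the salivary gland share is lower in all 3 WT_DTH than in all 3 WT_se libraries and the knockout ranges overlap.

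Averaged over the genotypes, with equal weight, 4306 genes changed on challenge (edgeR's quasi-likelihood test, Benjamini-Hochberg adjusted over 20034 genes), which is 21.5%. Of them 2373 were higher (11.8%) and 1933 lower (9.65%), and the median log2 fold change of all genes tested was -0.03. All 1156 members were among these genes. Of the averaged calls, 1655 passed in wild type alone, 569 in the knockout alone and 925 in neither genotype by itself. The averaged test of a member is not independent of its selection, so its fold change and p are given as a description of size and precision.

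Genes that rose in one genotype passed in the other in a larger share of cases than genes that fell, a difference of shares that was not tested. The contrasts in wild type and in the knockout have no library in common, although they share the estimate of spread. In wild type 1957 genes rose (9.77%), and in the knockout 88.7% of these had the same sign and 45.3% also passed. Their median log2 fold change was 0.58 in wild type and 0.36 in the knockout. In wild type 1798 genes fell (8.97%), and in the knockout 59.5% of these had the same sign and 15% passed, with medians of -1.19 and -0.13. Seen from the knockout, where 9.67% of the genes tested changed, 1164 genes rose (5.81%) and 76.2% of them also rose in wild type, while 774 fell (3.86%) and 34.8% of them also fell. Opposite changes passed in both genotypes for 25 genes, of which 20 were lower in wild type and higher in the knockout. Over all genes tested the log2 fold changes of the genotypes had a Pearson correlation of 0.05, as a description, since genes are not independent. The salivary and mitochondrial shares moved with the genes that fell in wild type, and their part in the result was not tested beyond the fits given at the end.

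**Figure D2:**
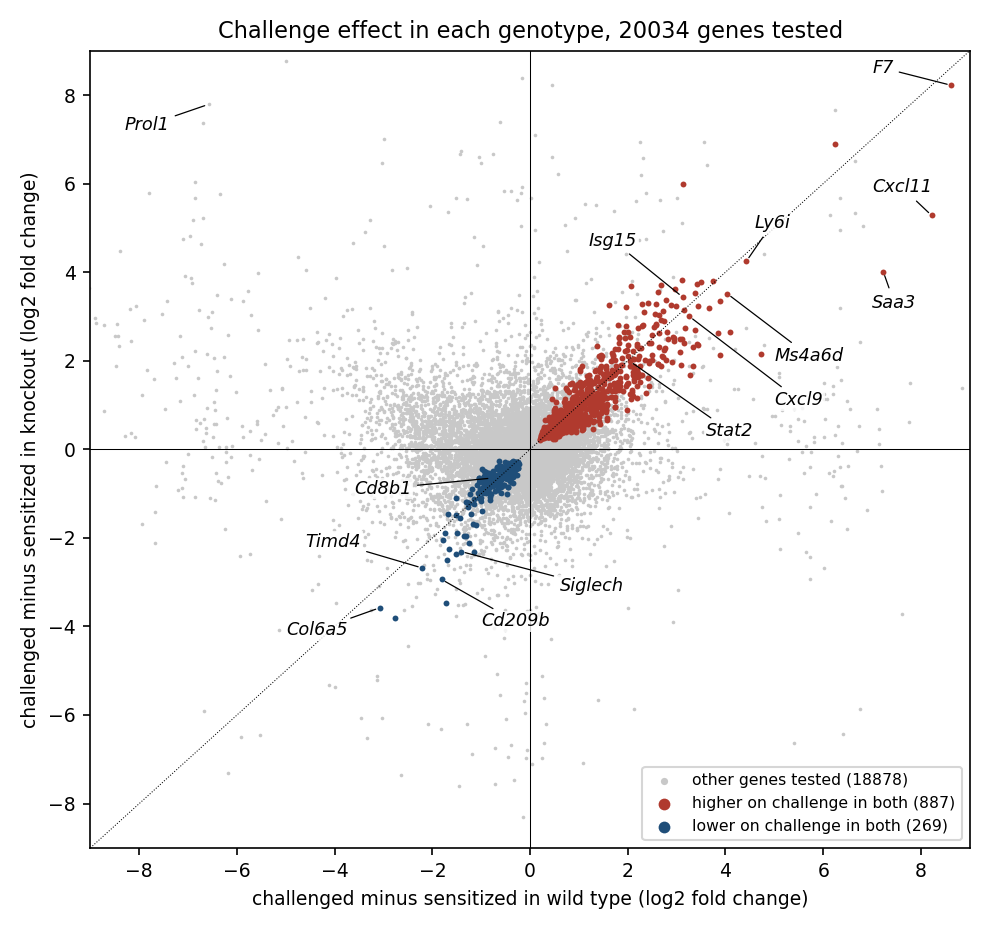
Log2 fold change on challenge in wild type (x axis) against that in the knockout (y axis) for 20034 genes, each a point; red, 887 members that rose; blue, 269 that fell; grey, the other genes; 16 genes lie outside the axes. Members lie along the dotted line of equal effect because both genotypes had to pass, and the grey cloud holds genes of opposite sign, such as the salivary gene Prol1. F7 and Cxcl11 have groups at 0, so their fitted positions depend on the prior count.

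Members that rose had a median log2 fold change of 0.73 (0.78 in wild type and 0.67 in the knockout), and 346 of 887 rose over 2-fold, 108 over 4-fold and 29 over 8-fold. Members that fell had a median of -0.55 (-0.57 in each genotype), and 36 of 269 fell over 2-fold and 6 over 4-fold. In 835 of the 887 (94.1%), all 6 challenged libraries lay above all 6 sensitized ones in CPM (counts per 1 M of the TMM-scaled library), beside 6.37% of all genes tested. The members were chosen on these same libraries, so that separation of the states is largely fixed by the choice and nothing is read from it. Among the 269, 230 (85.5%) had all challenged libraries below, beside 2.93%. Over both directions, 9.3% of the genes tested showed no overlap of the 6 and 6 libraries. The rise was larger in the knockout for 389 members (43.9%) and the fall for 154 (57.2%). Just inside the threshold lay Ndufs1, Cnst and Crot, with 0.0497, 0.0499 and 0.0499 as the larger of their 2 adjusted p. Just outside lay Lamc1 at 0.0501, Trpm7 at 0.0501 and Gm10134 at 0.0503. Counts of members in the lists below stand beside 4.43% of the genes tested that rose and 1.34% that fell.

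Interferon-gamma was the only interferon gene with enough counts to test, out of 11 on the list. Ifng, made by activated T and NK cells, measured 1.18, 1.95 and 2.22 CPM (lowest, median and highest) in the 6 sensitized libraries. In the challenged libraries it measured 3.73, 5.12 and 7.73 CPM. The states did not overlap, and the averaged log2 fold change was 1.59 ± 0.23 (SE; edgeR adjusted p = 0.000349). Ifnb1, the gene of interferon-beta, was at 0 in 11 of 12 libraries, which allows up to 3 counts in each by counting error alone. A change of the other 10 interferon genes was therefore not detectable at this depth.

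The receptors and kinases were mostly level while the transcription factors they act on rose. Of 11 receptors and signal transducers 3 were members, all higher. Stat2, a subunit of the ISRE-binding complex, went from 27.1, 34.3 and 43.0 CPM to 116.9, 145.2 and 157.6 CPM, with no overlap and a log2 fold change of 2.02 ± 0.11 (edgeR adjusted p = 2.71e-07). Irf9, the DNA-binding subunit of that complex, rose by 1.13 ± 0.09 on the log2 scale. The interferon receptor chains showed no detectable change. Log2 fold changes were 0.01 for Ifnar1, -0.02 for Ifnar2, -0.11 for Ifngr1 and -0.15 for Ifngr2, with edgeR adjusted p from 0.058 to 0.932. Jak2 passed in the average (0.27, adjusted p = 0.0124) and in wild type, but not in the knockout (adjusted p = 0.449).

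Among 8 interferon regulatory factors, 5 were members and rose. Irf7, the factor that amplifies type I interferon responses, measured 44.4, 56.7 and 107.9 CPM before and 284.5, 376.2 and 456.5 CPM after challenge, with no overlap. Its log2 fold change was 2.56 ± 0.21 (edgeR adjusted p = 3.43e-06), or 2.31 in wild type and 2.81 in the knockout. The others rose less: Irf8, a factor of monocytes and dendritic cells, by 0.90, Irf5 by 0.75, Irf1, an early interferon target, by 0.68 and Irf2 by 0.44 on the log2 scale. Irf8 and Irf5 rose by 1.19 and 1.07 in wild type and by 0.62 and 0.43 in the knockout. Those differences did not pass (adjusted p = 0.0798 and 0.0536 for the difference between genotypes).

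Of 14 sensors of nucleic acids and their adaptors, 9 were members and all 9 rose, against 4.43% of the genes tested. Zbp1, a sensor of Z-form nucleic acid, rose from 25.8, 34.9 and 59.7 CPM to 185.9, 209.9 and 267.7 CPM, a log2 fold change of 2.54 ± 0.19. The cytosolic RNA sensors of the RIG-I family all rose: Dhx58 by 2.29, Ifih1 (MDA5) by 1.92 and Ddx58 (RIG-I) by 1.03 on the log2 scale. Among endosomal sensors, Tlr7 rose by 1.36 and Tlr9 by 1.60.

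The antiviral effectors were the list of largest median change. All 30 rose in the average, against 11.8% of the genes tested, and 28 were members, against 4.43%. In 29 all challenged libraries lay above all sensitized ones, against 6.37%, which the choice of members largely fixes. The median log2 fold change was 2.37, or 1.91 in wild type and 2.77 in the knockout, beside -0.01 and -0.00 for all genes. The rise was nominally larger in the knockout for 28 of 30 genes, but the difference passed in 0 of them by edgeR or limma-voom and 1 by DESeq2, with 4 at an unadjusted p under 0.05. These genes share induction and libraries, so the 28 are not independent observations. Isg15 went from 4.19, 6.58 and 11.3 CPM to 52.8, 68.2 and 90.8 CPM, which is a log2 fold change of 3.28 ± 0.27 (edgeR adjusted p = 3.73e-06). Ifitm3, which blocks virus entry at membranes, rose from 15.2, 19.8 and 23.2 CPM to 101.3, 130.7 and 148.9 CPM, with a log2 fold change of 2.69 ± 0.13. The lowest challenged library of either gene was over 4 times the highest sensitized one.

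The synthetases that sense double-stranded RNA rose together. Oas1g measured 0.881, 1.27 and 1.84 CPM before and 11.5, 16 and 20.9 CPM after challenge, a log2 fold change of 3.64 ± 0.22. Oas2 went from 4.8, 7.74 and 21.9 CPM to 82.6, 105.3 and 127.5 CPM (3.46 ± 0.29), and Oas1a rose by 2.81 ± 0.20. Ifit3 ranged over 5.36, 9.44 and 34.7 CPM in the sensitized nodes and 84.7, 108.5 and 166.5 CPM in the challenged ones, with a log2 fold change of 3.09 ± 0.42. Its sensitized libraries were widely spread, which shows in the standard error. Ifit1 rose by 2.79 ± 0.31. Oas1a and Oas1g, and Ifit3 and Ifit3b, are near-identical neighbours whose reads can be split either way, so each value is uncertain as to the copy. Samd9l and Zc3hav1, named after their values were seen, were the 2 antiviral genes that were not members, with averaged log2 fold changes of 0.46 and 0.19.

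Guanylate-binding proteins, GTPases that attack the vacuoles of intracellular pathogens and are classic targets of interferon-gamma, rose as a family. All 11 were members, against 4.43% of the genes tested that were members and rose. In all 11 every challenged library lay above every sensitized one, against 6.37% of the genes tested. Among members that rose the share was 94.1%, so the choice largely fixes this count and nothing is read from it. Their median log2 fold change was 1.40 (1.22 in wild type and 1.55 in the knockout), with a range of 0.81 to 2.26. Gbp2, at the top, went from 33.8, 38.1 and 49.5 CPM to 155.5, 184.7 and 228.7 CPM (2.26 ± 0.12, edgeR adjusted p = 2.39e-07). Several members of this family are close copies, so that single values can be shared between them.

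Of 8 immunity-related GTPases, which act beside the guanylate-binding proteins, 6 were members and rose. Irgm1, a regulator of the family, measured 24.1, 34.2 and 43.8 CPM before and 96.9, 121.1 and 133.5 CPM after challenge. Its log2 fold change was 1.80 ± 0.09 on average, 1.46 in wild type and 2.14 in the knockout, and the difference did not pass (adjusted p = 0.0664). Igtp rose by 1.27 ± 0.11. All 8 genes of the list had the larger value in the knockout, with 0 differences past the threshold by edgeR or limma-voom, 1 by DESeq2 and 4 at an unadjusted p under 0.05.

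**Figure D3:**
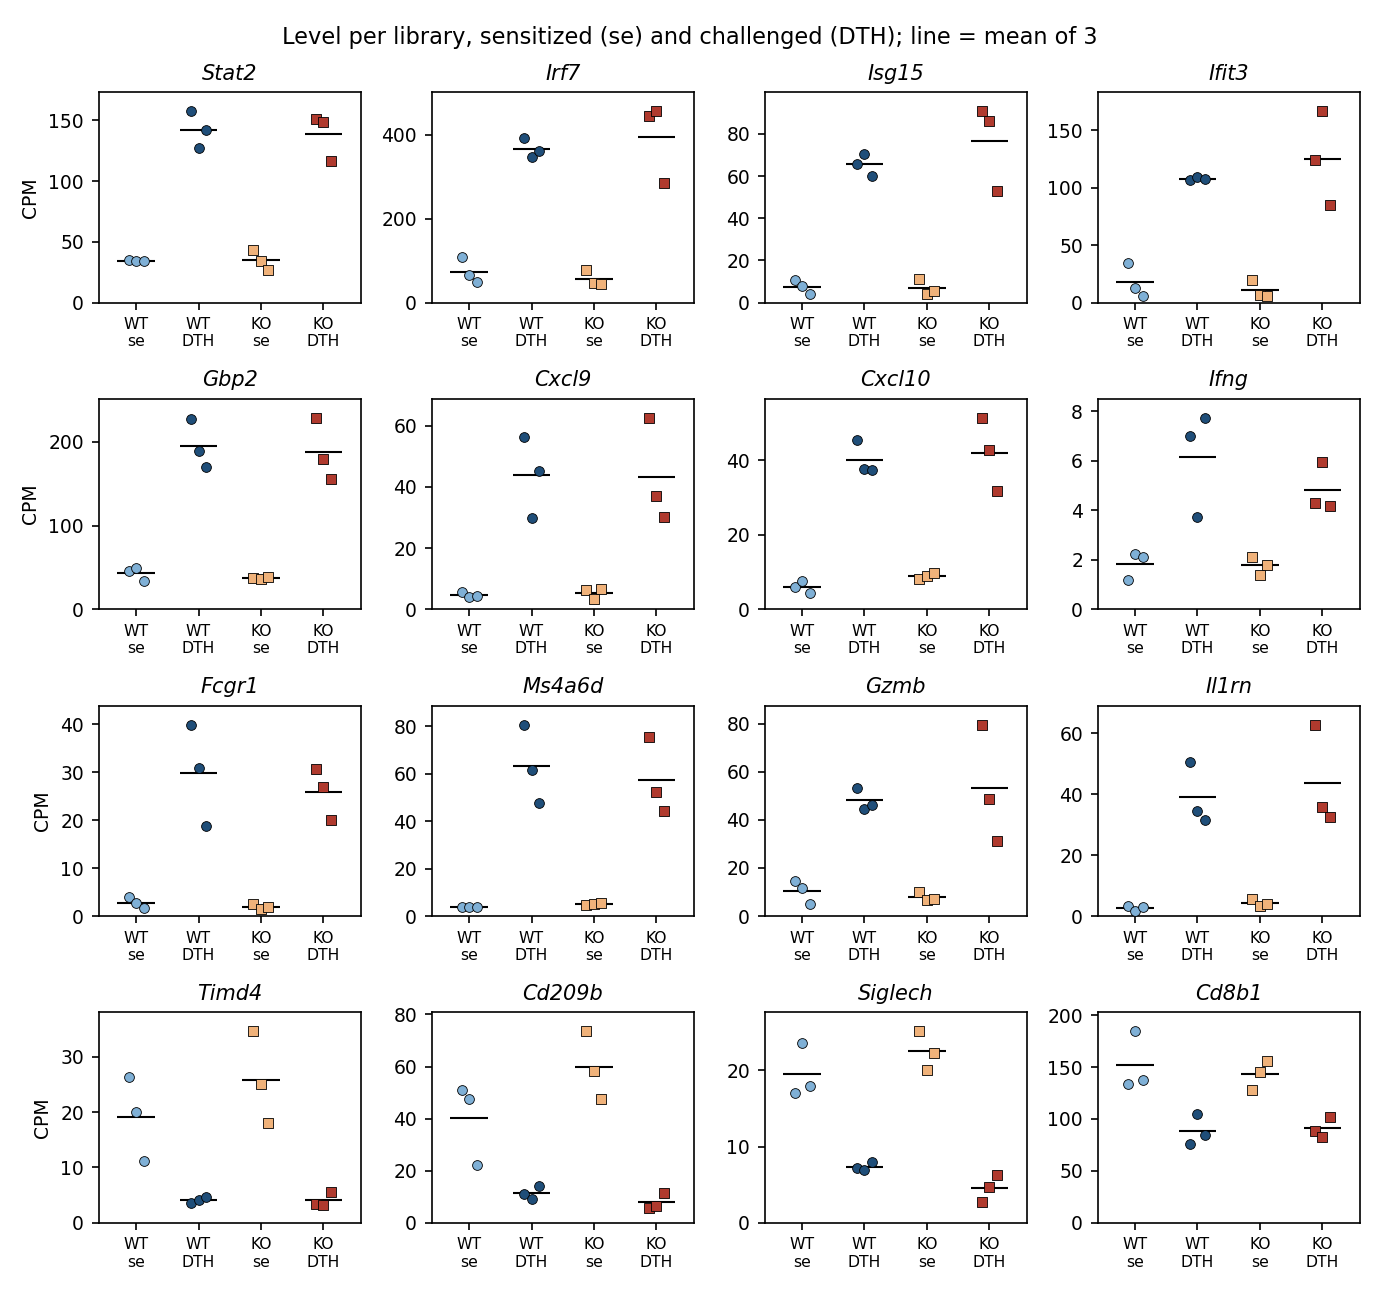
Level in CPM (y axis, linear from 0) of 16 members in each library, by group on the x axis; circles are wild type, squares knockout, and lines the means of 3. In the upper 3 rows every challenged library lies above every sensitized one, and in the lowest row (Timd4, Cd209b, Siglech and Cd8b1) below.

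Of 16 genes for class I processing 15 rose in the average, against 11.8% of the genes tested, and 12 were members, against 4.43%. The median log2 fold change was 0.62 (0.60 in wild type and 0.68 in the knockout). Tap1, a subunit of the peptide transporter into the endoplasmic reticulum, went from 135.8, 142.8 and 161.1 CPM to 312.2, 358.5 and 385.0 CPM, a log2 fold change of 1.26 ± 0.08. Nlrc5, the transactivator of class I genes, rose by 1.13, and Tapbp (tapasin), which loads peptide onto class I, by 1.06. The immunoproteasome subunits Psmb10 and Psmb9 rose by 0.85 and 0.83. The heavy chains H2-K1 and H2-D1, which with beta-actin (Actb, 0.35 ± 0.07) had the highest level per kilobase among members that rose, gained 0.40 ± 0.07 and 0.51 ± 0.06. None of the 6 challenged libraries of H2-K1, at 2625 to 3191 CPM, overlapped the sensitized ones at 2077 to 2482 CPM.

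Genes of MHC class II presentation rose in the average for 10 of 12, against 11.8% of the genes tested, but 3 were members, against 4.43%. The list's medians were 0.87 in wild type and 0.27 in the knockout. The members were Ifi30, a lysosomal reductase, at 1.09 ± 0.08, the class II loading factor H2-DMb1 at 0.77 ± 0.09 and cathepsin S (Ctss) at 0.70 ± 0.06. The difference between genotypes passed in 2 of the 12 genes by edgeR, both smaller in the knockout. In the same direction it passed in 7 by DESeq2, 2 by limma-voom and all 12 at an unadjusted p under 0.05. These genes share libraries, so the 12 are not independent observations.

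Of 12 feedback inhibitors of cytokine signalling 3 were members, all higher. Usp18, which removes ISG15 and blocks the type I interferon receptor, rose from 4.24, 6.93 and 10.4 CPM to 16.3, 23.1 and 27.6 CPM (1.72 ± 0.20). Socs1, the inhibitor of JAK kinases, gained 0.63 ± 0.09. Il1rn, the antagonist of the interleukin-1 receptor, had the largest change, from 1.77, 3.31 and 5.65 CPM to 31.6, 35.2 and 62.8 CPM (3.61 ± 0.23, edgeR adjusted p = 8.49e-07). Socs3 passed in the average at 0.36 and Tnfaip3, a brake on NF-kB, fell by 0.49 on the log2 scale, and each passed in 1 genotype.

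The 3 chemokines that bind CXCR3 rose, while no change of the receptor was detected. Cxcl9 measured 3.31, 4.87 and 6.52 CPM before and 29.9, 41.0 and 62.5 CPM after challenge (3.13 ± 0.24, edgeR adjusted p = 2.07e-06). Cxcl10 went from 4.48, 7.82 and 9.6 CPM to 31.6, 40.1 and 51.3 CPM (2.49 ± 0.14). Cxcl11 was at 0 in all 3 WT_se libraries and at most 0.0855 CPM in KO_se, against 0.458, 0.839 and 2.15 CPM in the challenged nodes, so that no fold is given. For Cxcr3 itself the log2 fold change was -0.13 ± 0.14 (adjusted p = 0.564). Of the 16 genes of this T helper 1 list 5 were members, the others being the interleukin-12 receptor subunit Il12rb1 at 1.11 ± 0.17 and Tbx21 at 0.77 ± 0.16. Tbx21, the master factor of T helper 1 cells, overlapped between states, at 4.09 to 6.45 CPM before and 5.88 to 10.6 CPM after challenge.

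CC chemokines gave 4 members of 16, all higher. Ccl7, which attracts monocytes through CCR2, went from 1.21, 1.65 and 2.15 CPM to 6.58, 8.65 and 10.9 CPM (2.40 ± 0.16). Ccl6, Ccl9 and Ccl4 rose by 1.42, 1.12 and 1.02 on the log2 scale.

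Markers of inflammatory monocytes rose throughout. All 18 rose in the average, against 11.8% of the genes tested, and 16 were members, against 4.43%. The median log2 fold change was 1.58 (1.67 in wild type and 1.46 in the knockout). For 17 markers all challenged libraries lay above all sensitized ones, against 6.37% of the genes tested. Most of these are members, chosen on these same libraries, so nothing is read from that count. Their summed share of counts was 0.0601 to 0.0704% in WT_se, 0.222 to 0.36% in WT_DTH, 0.086 to 0.109% in KO_se and 0.184 to 0.243% in KO_DTH. Ms4a6d, a membrane protein of monocytes and macrophages, had the smallest p of the genes named here. It measured 3.74, 4.39 and 5.28 CPM in the sensitized nodes and 44.1, 56.9 and 80.7 CPM in the challenged ones, a log2 fold change of 3.77 ± 0.16 (edgeR adjusted p = 1.02e-07). Fcgr1, the high-affinity IgG receptor, is itself induced by interferon-gamma and went from 1.44, 2.19 and 3.89 CPM to 18.8, 28.8 and 39.9 CPM (3.58 ± 0.24). The IgG receptor Fcgr4 rose by 3.34, Ms4a4c by 1.80 and Ly6c2, the Ly6C antigen, by 1.39. Ly6c2 and Ly6i belong to a cluster of close copies. Plac8 rose by 2.25 in wild type and 1.51 in the knockout, and that difference passed (adjusted p = 0.0438). Lyz2 and Ccr2, named after their values were seen, were the 2 genes of the list that were not members: they passed in the average but not in the knockout (adjusted p = 0.0854 and 0.214).

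Of 18 neutrophil genes 1 was a member, Il1b, the gene of interleukin-1 beta, which monocytes also make. A count of 1 is near the 5.77% over all genes tested, and nothing is read from it about neutrophils. Il1b went from 25.0, 45.3 and 73.6 CPM to 112.4, 139.9 and 248.5 CPM (1.83 ± 0.19). The list's median was 1.41 in wild type and -0.23 in the knockout. Complement gave 4 members of 14, all higher: factor B (Cfb) at 2.89 ± 0.21, the central component C3 at 1.46 ± 0.16 and the anaphylatoxin receptors C5ar1 at 1.54 ± 0.30 and C3ar1 at 1.47 ± 0.18. The list did not rise as a whole: in the average 6 genes rose and 4 fell, against 11.8% and 9.65% of the genes tested. Its median log2 fold change was 0.02, with a range of -3.34 to 2.89. Cfb measured 10.7, 19.0 and 34.0 CPM before and 102.0, 139.1 and 206.3 CPM after challenge.

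The largest rises of all included genes outside those lists. F7, the gene of coagulation factor VII, had no count in the 6 sensitized libraries and 0.675, 0.809 and 1.65 CPM in the challenged ones, at least 80.4-fold higher when the sensitized libraries are set to a floor of 3 counts over the group. Saa3, an acute-phase protein of macrophages, went from 0, 0.191 and 1.76 CPM to 5.63, 9.99 and 18.6 CPM (5.62 ± 0.67). Ocstamp, a protein needed for fusion of osteoclasts, rose by 4.55 ± 0.52 and Ly6i by 4.34 ± 0.28. Also among the 15 largest rises were Htr7, a serotonin receptor, at 3.46, Ffar2, a receptor for short-chain fatty acids, at 3.44, Slamf8, an immune cell receptor, at 3.43 and Slfn4 at 3.38. In all 15, every challenged library lay above every sensitized one, a condition of the choice.

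Granzyme B was the member among 17 genes of NK and cytotoxic lymphocytes. That share is near the 5.77% over all genes tested, and nothing is read from it about the list. Gzmb, the protease that cytotoxic cells deliver to their targets, measured 5.12, 8.54 and 14.7 CPM before and 31.4, 47.4 and 79.6 CPM after challenge (2.47 ± 0.26, edgeR adjusted p = 2.58e-05). Of the 17 genes, 4 rose in the average, against 11.8% of the genes tested. Beside Gzmb these were Gzma at 1.29 ± 0.24, Cd244a at 0.56 and Klrc1 at 0.54, none of them members. Klrc1 and Cd244a lost that call in 3 and 10 of 22 alternatives. The perforin gene Prf1 had a log2 fold change of 0.07 and Nkg7 of -0.04, and neither passed. Of the dendritic cell list, 6 of 20 genes rose as members and 2 fell. Sirpa, a signal-regulatory receptor also on monocytes, rose by 1.99 ± 0.14, and the inhibitory ligand Cd274 (PD-L1) by 1.72 ± 0.13. The costimulatory ligands Cd80 and Cd86 rose by 1.60 and 1.08, Itgax (CD11c) by 1.02 and Relb, an NF-kB subunit, by 0.35. Cd274 went from 40.4, 43.3 and 53.4 CPM to 117.4, 142.3 and 195.7 CPM.

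The 2 members of the dendritic cell list that fell are both carried by plasmacytoid dendritic cells, although no list of those cells was tested. Irf7, Tlr7, Tlr9 and Irf8, which those cells also express, rose (2.56, 1.36, 1.60 and 0.90 on the log2 scale). Siglech, a lectin of these cells, measured 17.0, 21.2 and 25.1 CPM in the sensitized nodes and 2.77, 6.58 and 8.0 CPM in the challenged ones, with no overlap (log2 fold change -1.86 ± 0.17, edgeR adjusted p = 7.37e-06). Ccr9, a gut-homing chemokine receptor that these cells also carry, had a log2 fold change of -0.99 ± 0.13 and is named after its value was seen. Siglech had a log2 fold change of -1.41 in wild type and -2.31 in the knockout, and the difference did not pass (adjusted p = 0.176).

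Resident macrophages of the node gave members in both directions. Timd4, a receptor for phosphatidylserine on resident macrophages, went from 11.1, 22.5 and 34.6 CPM to 3.19, 3.80 and 5.57 CPM, with no overlap (-2.44 ± 0.23, edgeR adjusted p = 1.25e-05). Cd209b (SIGN-R1), a lectin of macrophages in the medullary sinuses, went from 22.3, 49.3 and 73.5 CPM to 5.53, 10.1 and 14.2 CPM (-2.38 ± 0.23). Its neighbour in the genome, Cd209d, fell by 1.95 on the log2 scale. Siglec1 (CD169), the defining lectin of subcapsular sinus macrophages and an interferon-induced gene, rose instead by 1.14 ± 0.17, and the complement subunit C1qb by 0.93 ± 0.15. Marco, another receptor of medullary macrophages, had a log2 fold change of -0.39 ± 0.24 and did not pass (adjusted p = 0.28). The 12 genes tested from this list thus held 2 members that rose and 2 that fell.

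Other large falls were of genes of varied roles. Il22ra2, a soluble decoy that binds interleukin-22, went from 2.98, 6.15 and 7.47 CPM to 0.0735, 0.331 and 1.58 CPM (-3.28 ± 0.55). Col6a5, a chain of collagen VI, had the largest fall, from 0.714, 0.923 and 2.3 CPM to 0, 0.105 and 0.264 CPM (-3.33 ± 0.60). Both are genes of low count, and their errors are wide. Pla2g2d, a secreted phospholipase of lymphoid tissue, fell by 1.69, Hpgd, the enzyme that inactivates prostaglandins, by 1.63, and the growth factor Igf1 by 1.65 on the log2 scale. F8, the gene of coagulation factor VIII, fell by 1.82 and Itgb8, an integrin chain that activates TGF-beta, by 1.50. Dntt, which adds bases during rearrangement of antigen receptor genes, measured 2.62 to 5.28 CPM before and 0.896 to 2.17 CPM after challenge (-1.29 ± 0.20).

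Of 14 genes of T cell identity, 13 fell in the average, against 9.65% of the genes tested, and 6 were members, against 1.34%. In 10 all challenged libraries lay below all sensitized ones, against 2.93% of the genes tested. The median log2 fold change was -0.49 (-0.62 in wild type and -0.40 in the knockout). Cd8b1, a chain of the CD8 coreceptor, measured 127.8, 141.4 and 184.3 CPM before and 75.8, 86.7 and 104.8 CPM after challenge (-0.71 ± 0.10, edgeR adjusted p = 0.000338). Cd4 went from 111.5, 136.9 and 153.6 CPM to 78.1, 82.2 and 103.2 CPM (-0.63 ± 0.08). The CD3 chain Cd3g fell by 0.73, and the other members were Cd247 and the receptor constant regions Trbc1 and Trbc2, which fell by 0.46 to 0.55. The list's share of counts was 0.239 to 0.268% in WT_se, 0.182 to 0.237% in WT_DTH, 0.228 to 0.288% in KO_se and 0.164 to 0.236% in KO_DTH, so that the ranges abut or overlap. Among 131 T cell receptor variable segments tested, 38 fell in the average, against 9.65%, and 8 were members, against 1.34%, with a median of -0.66.

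Naive T cell genes gave 3 members that fell and 1 that rose among 18. Themis, which tunes receptor signalling, went from 60.7, 79.9 and 88.3 CPM to 34.1, 40.9 and 51.4 CPM (-0.86 ± 0.10). Dapl1 and Dgka, the latter a kinase that dampens receptor signalling, fell by 0.87 and 0.50. Satb1, a chromatin organizer, rose by 0.54 ± 0.07 although its states overlapped. Cd28, the costimulatory receptor, fell in the average (-0.81 ± 0.11) but passed in wild type only. Of regulatory T cell genes Itgae (CD103) and Nrp1 fell by 0.66 and 0.64, while Foxp3 was not a member.

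Mast cell proteases fell in both genotypes with overlapping libraries. Of 15 mast cell and basophil genes 4 were members, all lower. Cpa3 measured 10.2, 16.1 and 18.1 CPM before and 2.75, 3.36 and 13.3 CPM after challenge (-1.68 ± 0.27). Cma1, Mcpt4 and Tpsb2, the genes of a chymase, a second chymase and a tryptase, had log2 fold changes of -1.50, -1.42 and -1.32. The highest challenged library lay within the sensitized range in all 4.

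Several lists had few or no shared genes, beside 5.77% of all genes tested. In lists of these sizes such counts are near that share, and nothing is read from them about those programmes. Of 30 genes of DNA replication and mitosis, 16 of mature B cells and 17 of T cell activation, 0 were members by edgeR's test. In the replication and B cell lists DESeq2, limma-voom and edgeR at an unadjusted p under 0.05 also gave 0. In the activation list the counts were 2, 0 and 3. Mki67, the proliferation marker, had a log2 fold change of -0.35 ± 0.16 (adjusted p = 0.149). Among 12 germinal centre genes 1 was a member, Nuggc, a nuclear GTPase of germinal centre B cells, at -2.10 ± 0.39 with overlapping states. The Th17 list, which the title of the study bears on, had 0 members of 18 by edgeR, 2 by DESeq2, 1 by limma-voom and 5 at an unadjusted p under 0.05. Il17a ranged over 0.345, 7.32 and 29.1 CPM in the sensitized nodes and 0.606, 3.77 and 9.12 CPM in the challenged ones, and its averaged change did not pass (-0.52 ± 0.23, adjusted p = 0.136). The genotypes had opposite signs, with log2 fold changes of 0.48 in wild type (adjusted p = 0.418) and -1.51 in the knockout (adjusted p = 0.00648), and the difference passed (adjusted p = 0.0476). That call was lost wherever no gene differed between genotypes, as with 2 salivary components as covariates or without WT_DTH replicate 3.

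In the immediate early and stromal lists 1 gene each was a member, a share near the 5.77% over all genes tested, and nothing is read about those lists. Of 15 glycolysis genes 3 were members that rose, Pgam1 at 0.51, the glucose transporter Slc2a1 at 0.40 and pyruvate kinase (Pkm) at 0.36. Pdk1, a kinase that limits the oxidation of pyruvate in mitochondria, fell by 0.67 ± 0.07, from 79.3, 96.9 and 102.8 CPM to 52.0, 57.7 and 62.1 CPM with no overlap. In the list of responses to interleukin-17, Tnfaip2 rose by 1.72 ± 0.13 beside Saa3, and these were the 2 members of 13. Of 13 immediate early genes Zfp36, which destabilizes cytokine messenger RNAs, was the member, at 0.62 ± 0.10. Icam1, the adhesion molecule of endothelium and antigen-presenting cells, was the member among 19 stromal and endothelial genes, at 0.77 ± 0.12. Highest per kilobase among members that fell were the mitochondrial transfer RNA mt-Tl1 (-0.80 ± 0.09), the receptor gene P2ry10 (-0.56 ± 0.08) and Rpl14-ps1 (-0.36 ± 0.06). Rpl14-ps1 is a pseudogene whose reads may come from the parent gene.

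**Figure D4:**
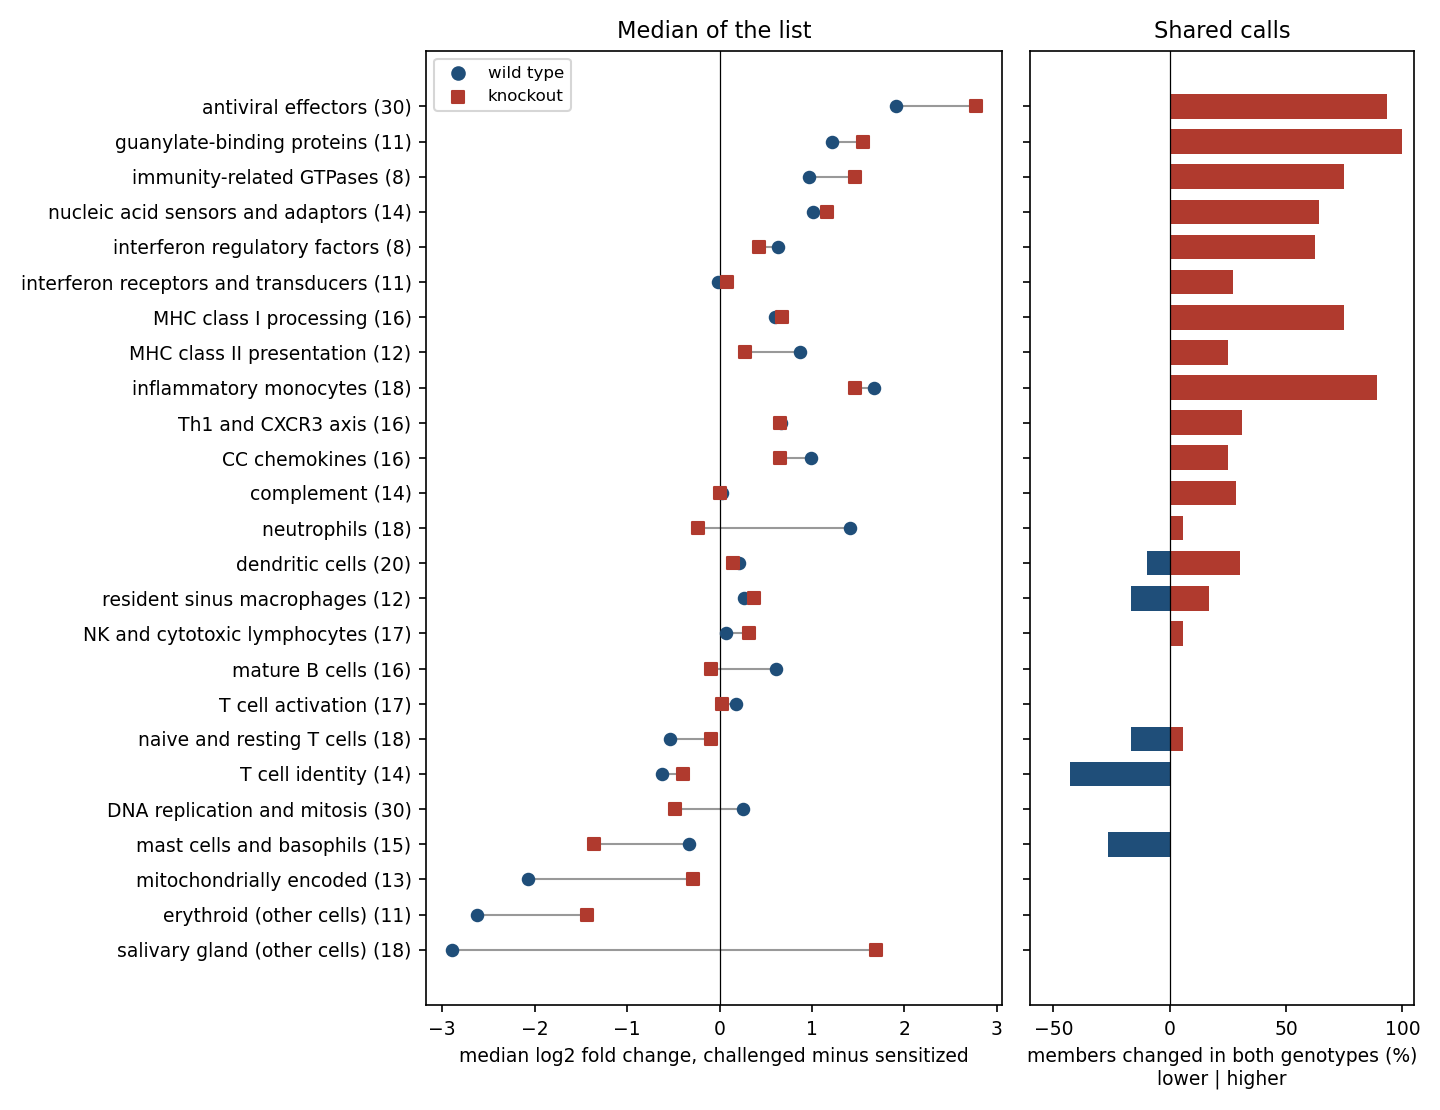
Median log2 fold change on challenge in wild type (circles) and knockout (squares) for 25 gene lists (left), and the share of each list's tested genes, whose number is in brackets, that changed in both genotypes (right, %; rises to the right, falls to the left). Antiviral effectors, guanylate-binding proteins and monocyte markers rise in both, T cell identity falls in both, and the salivary list has medians of opposite sign with 0 shared genes.

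Differences of the challenge effect between the genotypes were rare among members. Over all genes 422 differed (2.11%), with 3215 at an unadjusted p under 0.05, and 6 of the 1156 members were among them. The 5 of these with an established name, the sorting nexin Snx8, the adaptors Sh3bp2 and Skap2, Lgmn and Plac8, all rose in both genotypes and more so in wild type. Lgmn, a lysosomal protease, went from 43.4, 51.6 and 63.8 CPM to 108.7, 120.9 and 134.3 CPM, with a log2 fold change of 1.49 in wild type and 0.92 in the knockout (adjusted p = 0.0309 for the difference). Members had to pass in both genotypes, so a low count of differences among them follows in part from the choice. The count of 422 itself fell to 0 without WT_DTH replicate 3, without KO_se replicate 1 or without KO_se replicate 2.

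The number of shared genes depended on how the salivary share was treated. With 2 principal components of the salivary genes as covariates, 34 genes passed in both genotypes, 33 higher and 1 lower. In that fit the median standard error of the members' challenge effect in wild type was 0.23 in place of 0.12, and 99.7% kept their sign there. The median size of that effect was 0.63 on the log2 scale, in place of 0.70. The 34 included Stat2, Cxcl10, Gbp2, Irgm1, Ifitm3, Oas1g, Ms4a6d, Plac8, Lgmn, Tlr7 and, as the gene that fell, Timd4. In the average of both genotypes all 1156 members passed with those covariates, which their selection in both genotypes favours. Of all 4306 averaged calls 85.9% were kept. There the log2 fold change was 3.28 ± 0.27 for Isg15, -1.86 ± 0.18 for Siglech and -0.74 ± 0.11 for Cd8b1. With 1 library dropped from each group, the one richest in salivary counts, 458 genes were shared, 401 higher and 57 lower, and 1145 of the 1156 (99%) passed in the average, against 60% of all averaged calls. There the members' median size in wild type was 0.73. The dropped libraries all had Xist above Ddx3y. No sensitized library left in that fit did, while WT_DTH replicate 3 and KO_DTH replicate 3 did. Sex thus leaned further with challenge in that fit, and the part of each was not tested. Without KO_se replicate 2 the shared genes numbered 763.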

How the data were processed

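RNA of 12 mandibular lymph node libraries was analysed from the gene table the authors deposited, which holds estimated counts for 56941 mouse gene IDs. Per the labels' protocols, total RNA was extracted with an RNeasy kit and libraries were made with a directional NEBNext kit. Per the submitters' processing notes, the tools were fastp 0.23.2, HISAT2 2.2.1 and StringTie 2.2.1 on the build GRCm39. The deposited expected counts were whole numbers, so no rounding was needed. Symbols came from GENCODE release M21 (51948 IDs matched, and the others held 0.326 to 0.543% of counts). Promoters came from a RefSeq table on GRCm38.p6, an older build, so its coordinates are not those of the counts.

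All 12 libraries entered a single fit with 4 group means in edgeR 4.0.16 (quasi-likelihood, TMM, filterByExpr with a minimum count of 10, 8 residual degrees of freedom), after a check on simulated data. Contrasts were challenge in each genotype, their average and their difference, adjusted by Benjamini-Hochberg over 20034 genes, two-sided, threshold 0.05. Log2 fold changes are ± SE of the model. R 4.3.3, limma 3.58.1 and DESeq2 1.42.0 served the alternatives, and Python 3.11.15, pandas 2.3.3 and matplotlib 3.10.9 the tables and figures.

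The members and the 43 gene lists were chosen with earlier results of these data known. Lists (649 of 651 entries matched) are described by counts and medians, with no set test. Named genes were the 15 largest rises and falls among members with no overlap between states (mean count of at least 20 in the higher state, no predicted genes or receptor segments), up to 5 called genes per list by smallest p, 27 fixed genes, 5 per direction that differed between genotypes, and 3 members per direction of highest level per kilobase. Beyond that rule, C5ar1, Ccr9, Cd247, Ddx58, Dgka, Itgax, Ly6c2, Relb, Tlr9, Trbc1, Trbc2, Prf1, Nkg7, Foxp3 and the interferon receptors were named after their values were seen.

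No libraries of a group were duplicates (chi-squared per degree of freedom 40.3 to 332 within groups). Of 18 pairs of libraries with the same replicate number, 1 correlated above 0.1 (range -0.10 to 0.14). With 3 libraries per group, low correlations cannot exclude that the numbers pair the libraries. Xist exceeded Ddx3y in no library numbered 1 and in every library numbered 3, so sex followed those numbers. Alternatives were other size factors, other filters, DESeq2, limma-voom, a replicate block, an additive model, salivary covariates, a sex covariate and each library left out. Some genes of the lists are not reported here.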

Additional observations from a re-analysis of the deposited data

Results flagged for a closer look

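The challenge effect differed between genotypes in 422 genes by the test of the difference (edgeR, adjusted p under 0.05). Of the genes named by smallest p that also changed in the average, those with the larger value in the knockout had differences (knockout minus wild type, log2) of 3.54 for Parva, 3.99 for Acta2, 5.23 for Esrrg, 2.30 for mt-Tl2 and 3.80 for Ptk7. None of these 5 genes was a member. Lower in the knockout were Nmral1 by -1.39, Ly86 by -0.90, Lpxn by -0.86, B3gnt5 by -0.90 and Rp2 by -0.69. Among members, the difference was -0.74 for Plac8, -0.82 for Snx8, -0.59 for Skap2, -0.57 for Lgmn and -0.87 for Sh3bp2, each of which rose in both genotypes. The salivary share of counts moved with these differences (lower in all WT_DTH than in all WT_se libraries, with overlapping ranges in the knockout), and with 2 salivary components as covariates 0 genes differed by edgeR, with 954 at an unadjusted p under 0.05. The part of the salivary share in single genes was not tested.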

How the results depend on the processing

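Directions of the 219 named genes called in the average were the same under all alternatives that tested them. Of these genes 190 to 219 kept their call, depending on the alternative. The averaged effect counted 4306 genes, and 2833 once the library richest in salivary counts was dropped from each group. That drop also made sex lean further with challenge. Leaving out each library in turn gave 3434 to 4017. Shared genes numbered 1156, and 34 with 2 salivary components or 458 with the salivary-richest libraries dropped. They ranged from 763, without KO_se replicate 2, to 1073 as single libraries were left out. The difference between genotypes counted 422 genes, 267 with no filter on low counts, 1238 by DESeq2, 157 by limma-voom, 0 with 2 salivary components and 168 with the salivary-richest libraries dropped. Leaving out 1 library gave 0 to 830: 0 without WT_DTH replicate 3 or KO_se replicate 1 or 2 (3105, 3012 and 2797 at an unadjusted p under 0.05), 3 without KO_DTH replicate 1, 47 without WT_se replicate 3 or KO_DTH replicate 2, 118 without WT_DTH replicate 1, 238 without WT_DTH replicate 2, 263 without WT_se replicate 2 and 830 without KO_DTH replicate 3. The cause was not tested. With the replicate number as a block, 4014 genes changed in the average, 1057 were shared and 128 differed between genotypes. Whether the numbers pair the libraries is not known. All other alternatives kept the 3 counts within 1.5 times. The share of rises among averaged calls was 55.1%, and 52.1 to 61.9% over the other filters, tests and covariates. In the 250 bases before the start alone, GAAANNGAA was in 16.5% of promoters of members that rose, 3.85% of those that fell and 6.49% of those tested. Genes at under 3 counts, among them the type I interferons, are beyond the depth of these libraries.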
